A study of Mus musculus with 6 samples.

Results

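The mitochondrial ribosomal protein genes are the nuclear genes whose products are imported into mitochondria and built into the mitochondrial ribosome. They were taken from the deposited count table by name, as every row whose symbol starts with Mrpl (large subunit) or Mrps (small subunit) followed by a digit, leaving out 5 pseudogene rows whose names contain -ps. This gave 77 of 45808 rows, 48 named for the large subunit and 29 for the small one. Of the 77 members, 76 had enough reads to be tested; Mrpl53 did not. The RNA came from T cells purified from the spleen of mice on a C57BL/6 background aged 2 months, and activated in vitro with anti-CD3 and anti-CD28 antibodies and IL-2, a T cell growth factor. Of the 6 libraries, 3 were wild type and 3 labelled Drp1-/- (KO), a knockout of the dynamin-related GTPase that splits mitochondria and is encoded by Dnm1l. All other conditions in the labels were shared by both groups. The labels do not give the knockout's construction, a Cre driver or the cells in which the gene was deleted, and they do not say whether the replicates were separate animals or cultures, so p-values measure only how far these samples differ from each other, possibly for technical reasons. In bulk RNA, fewer cells of a type and less RNA per cell cannot be told apart.

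Mitochondria keep a small genome that encodes core subunits of the respiratory chain, and a dedicated ribosome inside the organelle translates those mRNAs. Its rRNAs, mt-Rnr1 in the small subunit and mt-Rnr2 in the large one, are encoded by the mitochondrial genome, while all of its proteins are encoded in the nucleus. Some of these proteins have bacterial counterparts and others are found in mitochondria only. Activated T cells enlarge their mitochondria as they leave quiescence, and mitochondrial translation is among the processes they need for this growth.

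The libraries held 24738017 to 34730475 counts each. Dnm1l, the targeted gene, was at 123, 117 and 117 CPM (the count as a share of the library total, adjusted by a TMM factor, in parts per 1e6) in the wild-type libraries and 92.6, 92.9 and 100.6 CPM in KO, and fell by 0.32 ± 0.05 (SE) on the log2 scale (edgeR adjusted p = 0.000728). The count is over the whole gene, no deleted exon was measured apart, and why this much Dnm1l RNA was read in KO was not tested. Wild-type replicate 1 was unlike the remaining wild-type libraries. On the first principal component of all tested genes it lay at -44.9, against -20.9 and -20.2 for replicates 2 and 3 and 23.0 to 33.9 for the KO libraries. Where leaving it out changed a call, the value without it is given. Of 17 T cell markers 2 rose and 10 fell, and their summed level was 6818 to 7075 CPM over the wild-type libraries and 6717 to 6807 CPM over the KO libraries. For 9 B cell markers (1 rose, 4 fell) it was 540 to 552 and 465 to 487 CPM, and for 12 myeloid markers (5 tested, 1 rose, 3 fell, S100a8 and S100a9 at 0) 31.8 to 35.0 and 25.1 to 28.5 CPM. For 7 natural killer cell markers (5 tested, 4 rose) it was 104 to 123 and 165 to 194 CPM, and for 10 erythroid and platelet markers (4 tested, all 4 rose, Hba-a2 at 0) 7.92 to 10.4 and 21.6 to 24.4 CPM. T cell markers were the most abundant in every library, and the sums of the 2 genotypes did not overlap in any list. Of all genes tested, 32.5% had all KO libraries above and 30.8% below, and 26.7% rose and 26.1% fell. The T cell sum mixed both directions. Its 2 risers were Il2ra (mean CPM 1118.5 for wild type, 1510 for KO) and Thy1 (509 and 670). Every other T cell marker had a fitted log2 fold change below 0, and the median of this list was -0.17. The small change of the T cell sum thus rested on the 2 risers and does not describe most of its genes. Outside the T cell list 1 gene held most of each sum. By mean CPM in wild type and KO these were Ighm (329 and 278) and Cd68 (26.2 and 19.9). Gzma held 92.6 and 141 CPM of the natural killer sum and Itga2b 7.01 and 13.2 CPM of the last sum. The natural killer markers apart from Gzma and Eomes were at means of 3.22 CPM or less. The part of these cell types in the results on ribosomal protein genes was not tested.

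Most mitochondrial ribosomal protein genes were more abundant in KO, in both subunits and by small amounts. Of 47 tested large subunit genes, 31 rose (66.0%), 4 fell and 12 did not pass (edgeR's quasi-likelihood test, Benjamini-Hochberg adjusted p under 0.05), the median log2 fold change being 0.28. Among 29 small subunit genes there were 19 rises (65.5%), 1 fall and 9 that missed the threshold, and the median was 0.22. Among all 14209 genes tested, 26.7% were higher, 26.1% were lower and 52.9% were called in either direction, and the median was 0.01. Thus the share of members called higher was well over that of all genes and the share called lower, 8.51% and 3.45%, well under it. The fold changes of the 76 members ran from -0.43 to 0.78, and 49 of the 55 called members changed by less than 1.5-fold. In 53 members (69.7%) all 3 KO libraries lay above all 3 wild-type libraries, against 32.5% of all genes, and in 6 all KO libraries lay below, against 30.8%.

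**Figure D1:**
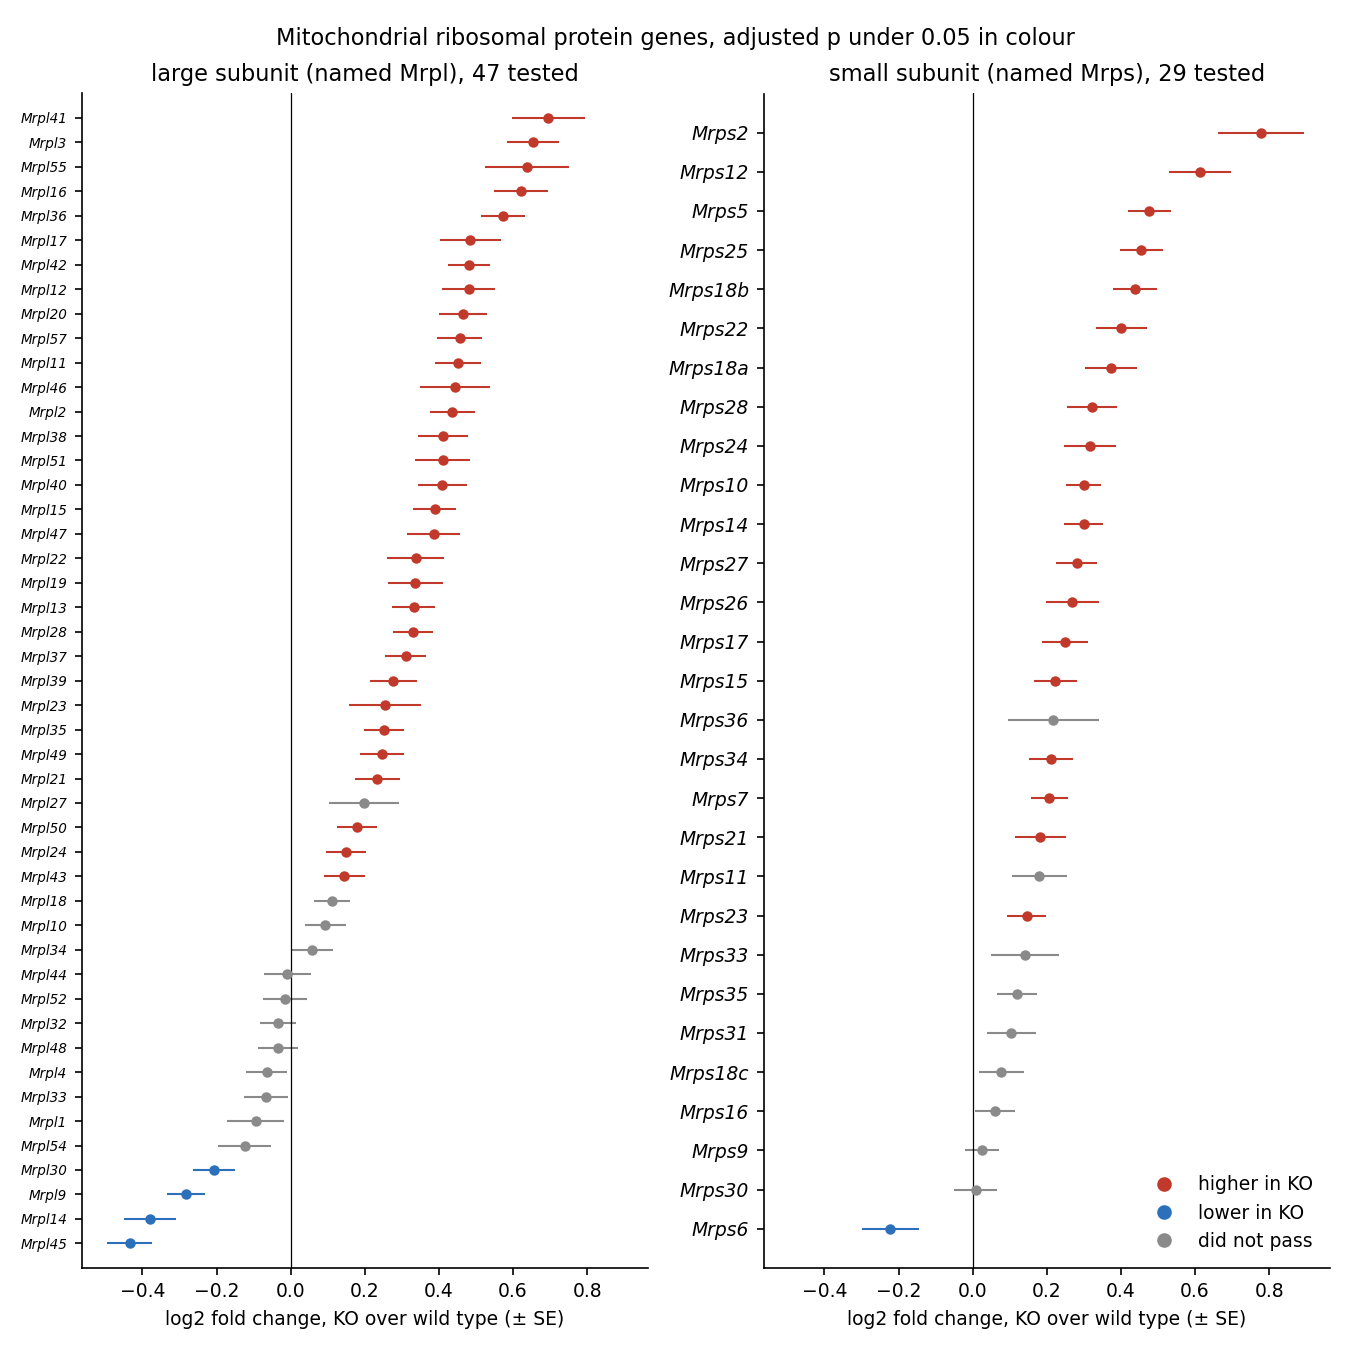
Log2 fold change of KO over wild type for each of the 47 tested large subunit genes (left) and 29 small subunit genes (right), with bars for the standard error and colours for the call at an adjusted p under 0.05. Red points (higher in KO) fill the upper part of both panels, up to 0.70 for Mrpl41 and 0.78 for Mrps2, and the blue points (lower in KO) are 4 large subunit genes and Mrps6.

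Added over members, the large subunit genes made up 2061, 2097 and 2074 CPM in wild-type replicates 1, 2 and 3 and 2279, 2397 and 2291 CPM in KO replicates 1, 2 and 3. The small subunit genes added up to 1042, 1063 and 1038 CPM in wild type and 1189, 1255 and 1204 CPM in KO. Every KO library was above every wild-type library in both sums, with KO replicate 2 the highest, and the KO mean was 11.8% higher for the large subunit and 16.1% higher for the small one. The members together held 0.295 to 0.311% of all counts in wild type and 0.357 to 0.375% in KO. For the rRNAs that these proteins assemble on, read here in libraries of an mRNA kit, mt-Rnr1 had a log2 fold change of -0.02 ± 0.05 (edgeR adjusted p = 0.783) and mt-Rnr2 of -0.09 ± 0.06 (adjusted p = 0.252), neither of which passed.

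Wild-type replicate 1 was the lowest wild-type library in 41 of the 76 members and the highest in 28. Over all 14209 genes tested it was the lowest in 6042 and the highest in 5817. Lying at one end or the other was thus common for this library over all genes too, but the direction differed. Among large subunit genes this replicate was the lowest in 29 and the highest in 15, and among small subunit genes in 12 and 13. The lean to the low end was thus in the large subunit genes. Averaged over the large subunit genes, the difference of log2(CPM + 0.5) from a gene's average was -0.16 in wild-type replicate 1 against -0.09 and -0.10 in replicates 2 and 3, and 0.08, 0.17 and 0.10 in the KO libraries. Over the small subunit genes it was -0.14, -0.10 and -0.13 in wild type and 0.09, 0.17 and 0.11 in KO. Leaving out wild-type replicate 1 gave 29 large subunit genes higher and 4 lower with a median of 0.26, and 20 small subunit genes higher and 1 lower with a median of 0.21. Without it Mrpl23 (0.18, edgeR adjusted p = 0.0886), Mrpl24 (0.11, 0.0668), Mrpl43 (0.11, 0.102) and Mrps21 (0.15, 0.0833) were no longer called higher, and Mrpl18 (0.14, 0.0143), Mrps11 (0.19, 0.0312) and Mrps36 (0.31, 0.0356) were. Of the 50 members called higher, 46 were thus called without this library, and 44 were called in each of the 6 fits that left out 1 library.

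Promoters of 5 members that differ in their response are shown, since the genes share a function but not a direction. RefSeq promoter windows of the GRCm38.p6 build (mm10), 300 bases from 250 before the gene's start to 50 after it, were found for 68 of the 77 members. They were searched on both strands for 6 motifs. NRF1, a factor known for its hold on genes of mitochondrial function, binds a repeat written here as GCGCA, then any base, then GCGC. The motif of ETS factors, which include GABPA, another factor tied to mitochondrial genes, was written CCGGAAG. That of YY1, often found at the start site of ribosomal protein genes, was AAGATGGCG. The E-box of Myc and related proteins was CACGTG, the box bound by NF-Y was CCAAT, and that of SP1, common at housekeeping promoters, was GGGCGG. The 170 bases printed for each gene lie before its first annotated exon, on the gene's own strand, 5′ to 3′, with matches in capitals: Mrpl45 at chr11:97315546-97315715 (plus strand, 2 NRF1 matches), Mrpl9 at chr3:94443148-94443317 (plus strand, 1 NRF1 match), Mrpl17 at chr7:105811100-105811269 (minus strand, 1 NRF1 match and 2 SP1 matches read on the other strand), Mrps18a at chr17:46110816-46110985 (plus strand, 1 ETS match) and Mrps12 at chr7:28741822-28741991 (minus strand, 4 CCAAT matches and 1 SP1 match on the other strand). Mrpl45 and Mrpl9 fell in KO, and Mrpl17, Mrps18a and Mrps12 rose. The matches listed are those in the printed bases, and the full windows hold more. That of Mrps18a also has 1 YY1 and 1 CCAAT match, and that of Mrps12 also has 1 ETS match. The window of Mrpl17 has 1 ETS match and 4 SP1 matches in all, and that of Mrpl45 has 3 NRF1 matches in all.
Mrpl45: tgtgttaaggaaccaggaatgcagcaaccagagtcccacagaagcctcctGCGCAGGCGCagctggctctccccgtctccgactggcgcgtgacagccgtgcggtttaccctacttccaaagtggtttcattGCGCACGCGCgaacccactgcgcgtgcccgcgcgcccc
Mrpl9: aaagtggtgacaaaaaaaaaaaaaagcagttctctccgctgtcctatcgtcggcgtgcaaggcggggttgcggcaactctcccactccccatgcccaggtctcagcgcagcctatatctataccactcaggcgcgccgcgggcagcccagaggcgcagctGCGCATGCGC
Mrpl17: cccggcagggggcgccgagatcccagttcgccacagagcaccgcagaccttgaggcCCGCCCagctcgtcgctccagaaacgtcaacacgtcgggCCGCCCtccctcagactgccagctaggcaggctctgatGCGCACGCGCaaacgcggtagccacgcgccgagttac
Mrps18a: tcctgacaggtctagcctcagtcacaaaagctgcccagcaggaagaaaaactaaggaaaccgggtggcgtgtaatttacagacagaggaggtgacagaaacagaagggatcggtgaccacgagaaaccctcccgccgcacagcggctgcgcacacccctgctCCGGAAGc
Mrps12: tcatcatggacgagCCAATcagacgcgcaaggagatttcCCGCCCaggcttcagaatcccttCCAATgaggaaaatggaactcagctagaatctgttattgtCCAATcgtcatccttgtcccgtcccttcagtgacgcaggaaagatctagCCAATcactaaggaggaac
The NRF1 motif was in the window of 13 of 68 members (19.1%), 10 of 42 large subunit genes and 3 of 26 small subunit genes, against 10.8% of 9675 tested genes and 4.8% of all 27025 genes with a window. ETS matches were in 23 members (33.8%; 18.8% of tested genes, 9.16% of all), and YY1 matches in 8 (11.8%; 3.28% and 1.49%). E-box matches (7.35% of members; 10.3% of tested genes, 7.19% of all), CCAAT matches (39.7%; 39.0% and 37.9%) and SP1 matches (34 of 68 members; 64.6% and 36.0%) were no more frequent among members than among tested genes, or barely so. Split by response, NRF1 matches were in the windows of 4 of the 5 members that fell (Mrpl45, Mrpl14, Mrpl9 and Mrpl30, not Mrps6), in 6 of 44 that rose and in 3 of 18 that did not pass. This split was looked at after the fold changes were known and is given without a test. Over all tested genes with a window the motif went with no such direction: 33.5% of 1048 genes with a match were higher in KO and 25.8% lower, against 28.9% and 27.4% of 8627 genes without one. ETS, YY1, E-box and CCAAT matches were in none of the 5 windows of members that fell. A match is a run of letters and not a measured binding site.

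The largest rises in the large subunit were in Mrpl41, Mrpl3, Mrpl55, Mrpl16, Mrpl36 and Mrpl17. Mrpl41, a mitochondria-specific protein (chromosome 2, 24974117 to 24975098, mm10), was read at 11.2, 14.0 and 14.8 CPM in wild type and at 21.1, 23.1 and 20.9 CPM in KO. All KO libraries lay above all wild-type libraries, and the gene rose by 0.70 ± 0.10 on the log2 scale (edgeR adjusted p = 0.000309). Mrpl3 (chromosome 9, 105053239 to 105079888), the counterpart of bacterial L3, which reaches toward the peptidyl transferase centre, was at 31.7, 36.6 and 36.6 CPM in wild type and 52.2, 58.2 and 55.0 CPM in KO. The groups were again apart, and the rise was 0.65 ± 0.07 (edgeR adjusted p = 8.18e-05). Its exons overlap 1 predicted gene on its own strand and 1 on the other.

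Mrpl55, with a bacterial counterpart, was among the least counted of these genes, with 8.0, 10.3 and 11.0 CPM in wild type and 14.4, 16.3 and 15.4 CPM in KO. The lowest KO library was above the highest wild-type library, and the rise was 0.64 ± 0.11 (edgeR adjusted p = 0.000999). Without wild-type replicate 1, its lowest library, it was 0.52. Mrpl16, whose bacterial counterpart helps place the tRNA acceptor end, was at 21.1, 24.4 and 24.8 CPM in wild type and 34.4, 37.6 and 36.5 CPM in KO, a rise of 0.62 ± 0.07. Mrpl36, whose exons overlap Ndufs6 on the other strand, was at 26.0, 29.0 and 28.3 CPM against 40.5, 42.2 and 41.4 CPM, a rise of 0.57 ± 0.06. Neither gene's groups overlapped. Mrpl17, a protein at the exit of the tunnel through which the new chain leaves, was at 32.3, 39.4 and 40.9 CPM in wild type and 52.3, 54.7 and 51.2 CPM in KO, and rose by 0.49 ± 0.08 (edgeR adjusted p = 0.000762). Of the promoters printed, a chosen few, that of Mrpl17 was the only one of a riser with an NRF1 match. Over all members that rose and had a window, 6 of 44 had such a match.

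Large subunit genes that fell were fewer, but 3 of them were the most counted members of all in wild type. Mrpl45 (chromosome 11, 97315716 to 97329920), whose product lies at the tunnel exit and helps hold the ribosome at the inner membrane, was at 163, 143 and 142 CPM in wild type and 114, 108 and 109 CPM in KO. All KO libraries lay below all wild-type libraries, and it fell by 0.43 ± 0.06 on the log2 scale (edgeR adjusted p = 0.000285), or 0.37 without wild-type replicate 1, its highest library. In wild type Mrpl45 gave 4.77% of the summed CPM of all members and in KO 3.12%, the first rank in both. Mrpl9 (chromosome 3, 94443318 to 94451130), counterpart of bacterial L9, was at 121, 114 and 112 CPM in wild type and 97.8, 92.1 and 95.6 CPM in KO, with no overlap, and fell by 0.28 ± 0.05 (edgeR adjusted p = 0.00111).

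Mrpl30 was at 112, 103 and 99.7 CPM in wild type and 89.8, 94.2 and 89.6 CPM in KO, and fell by 0.21 ± 0.06 (edgeR adjusted p = 0.011); the adjusted p was 0.0501 without KO replicate 3. Mrpl14, a protein of the face that meets the small subunit, was the less counted gene of this group, at 35.0, 31.4 and 31.1 CPM in wild type and 25.9, 25.5 and 23.4 CPM in KO, and fell by 0.38 ± 0.07 (edgeR adjusted p = 0.00124). Both genes were lower in every KO library than in any wild-type library. Exons of Mrpl9 overlap Oaz3 and those of Mrpl14 overlap Tmem63b on the opposite strand, and the strand setting of the counting is not given in the sources used here.

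In the small subunit, Mrps2 and Mrps12 rose most. Mrps2 (chromosome 2, 28468066 to 28471178), counterpart of bacterial S2, was at 15.2, 19.5 and 20.3 CPM in wild type and 28.0, 35.7 and 31.2 CPM in KO. Its lowest KO library exceeded the highest wild-type library, and the rise of 0.78 ± 0.12 (edgeR adjusted p = 0.000384) was the largest of all 76 members; it was 0.66 without wild-type replicate 1. Mrps12 (chromosome 7, 28739641 to 28741820), counterpart of S12, a protein of the decoding centre, was at 13.4, 15.4 and 15.4 CPM in wild type and 23.5, 23.8 and 20.7 CPM in KO. The groups did not overlap, and it rose by 0.61 ± 0.08 (edgeR adjusted p = 0.00025).

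Mrps5, counterpart of S5, which takes part in decoding accuracy, was at 31.9, 33.8 and 33.4 CPM in wild type and 44.5, 48.6 and 44.9 CPM in KO, a rise of 0.48 ± 0.06. Mrps25 and Mrps22 belong to the mitochondria-specific set. Mrps25, whose exons overlap Nr2c2 on the other strand, was at 25.1, 27.3 and 26.8 CPM against 36.6, 36.5 and 35.6 CPM, a rise of 0.45 ± 0.06. Mrps22 was at 28.9, 29.7 and 26.6 CPM against 36.1, 40.2 and 36.1 CPM, a rise of 0.40 ± 0.07. In each of these 3 genes every KO library was above every wild-type library. Mrps6, counterpart of S6, was the only small subunit gene that fell, by 0.22 ± 0.08 (edgeR adjusted p = 0.032), from 55.2, 49.1 and 44.4 CPM in wild type to 41.8, 44.1 and 41.2 CPM in KO. The groups were barely apart, and the call was lost in 4 of the 6 fits that left out 1 library, with adjusted p from 0.0501 to 0.106. Mrps6 shares exons on its own strand with Slc5a3, a transporter gene that fell by 0.58 ± 0.15 (edgeR adjusted p = 0.00717), so their reads may not have been separated.

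**Figure D2:**
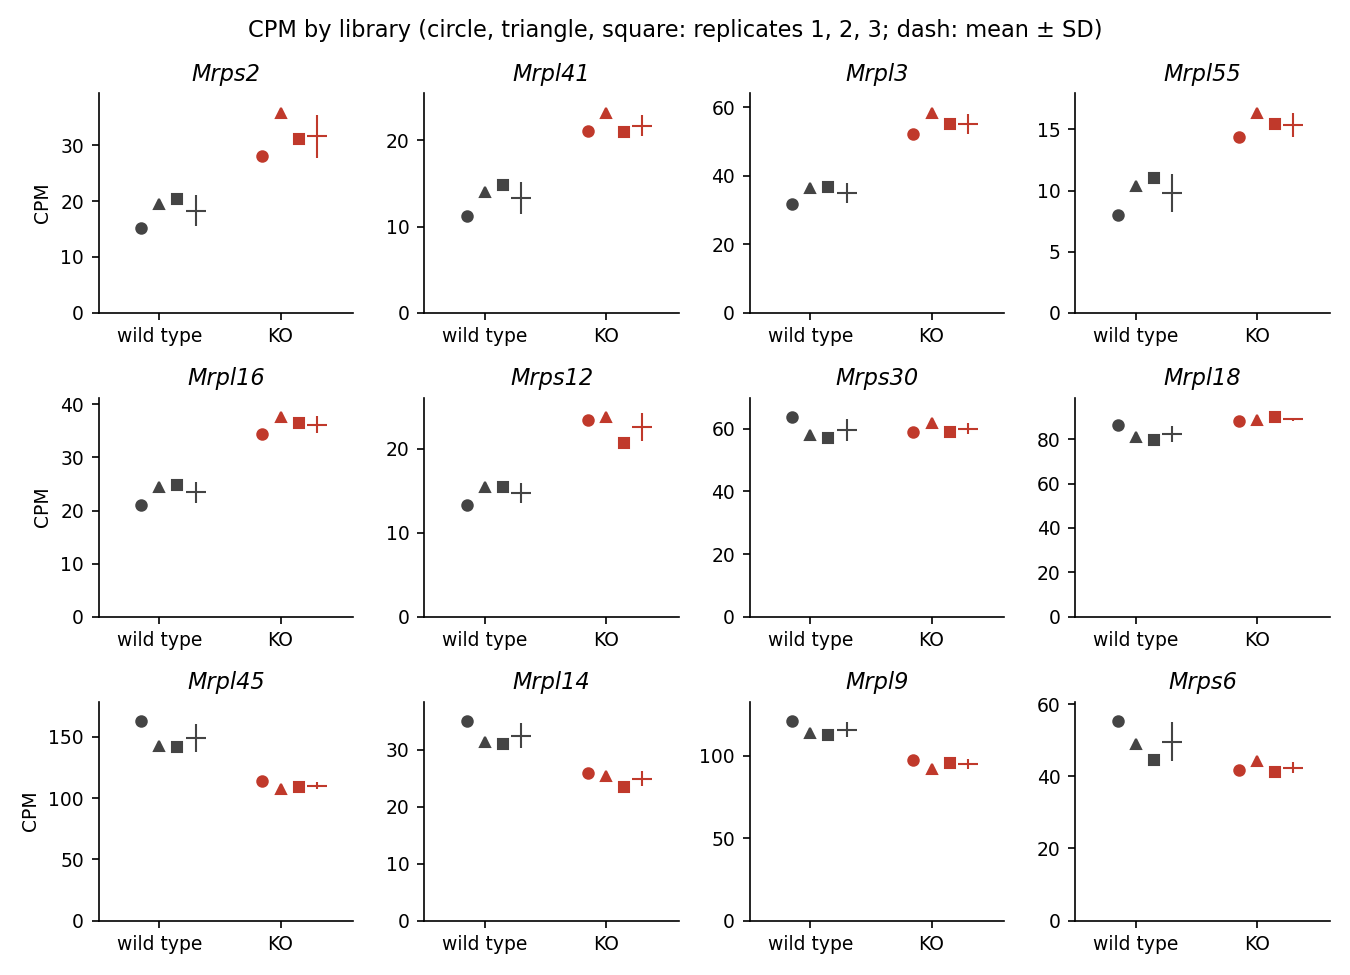
CPM in each library (circle, triangle and square for replicates 1, 2 and 3; wild type grey, KO red) with mean ± SD over 3 libraries for 12 members, each axis starting at 0. The 6 genes at the start (Mrps2 to Mrps12) are higher in every KO library, Mrps30 overlaps, Mrpl18 is higher by a small step that passed only under some alternatives (without wild-type replicate 1 among them), and Mrpl45, Mrpl14, Mrpl9 and Mrps6 are lower in every KO library.

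Symbols and places in the ribosome differ for 3 members. Mrps18a and Mrps30 carry small subunit names but their products sit in the large subunit, and Mrps36 encodes no ribosomal protein but a subunit that joins the alpha-ketoglutarate dehydrogenase complex. Mrps30 was at 63.6, 58.1 and 57.2 CPM in wild type and 58.9, 62.0 and 59.0 CPM in KO, with overlapping groups and a log2 fold change of 0.01 ± 0.06 (edgeR adjusted p = 0.918). Mrps36, the least counted tested member, was at 5.41, 4.36 and 4.50 CPM against 5.63, 5.90 and 4.99 CPM, with overlapping groups and a log2 fold change of 0.22 ± 0.12 (edgeR adjusted p = 0.16). Without wild-type replicate 1 it was 0.31 and passed (adjusted p = 0.0356). Sorted by place, 32 of 49 large subunit genes rose and 4 fell, and 18 of 26 small subunit genes rose and 1 fell.

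Mrps18a, Mrps18b and Mrps18c are paralogs related to bacterial S18. The product of Mrps18c takes the place of S18 and is counted below as the bacterial counterpart, while those of Mrps18a (large subunit) and Mrps18b (small subunit) take places of their own and are counted as mitochondria-specific. Mrps18a was at 28.6, 30.7 and 29.8 CPM in wild type and 36.7, 42.3 and 36.4 CPM in KO, without overlap, and rose by 0.37 ± 0.07 (edgeR adjusted p = 0.00152). Mrps18b was at 21.1, 22.0 and 23.0 CPM against 29.6, 30.1 and 29.8 CPM, with its groups also apart, and rose by 0.44 ± 0.06 (edgeR adjusted p = 0.000238). Its exons overlap a predicted gene on the other strand. Mrps18c was at 23.6, 21.9 and 22.6 CPM against 23.3, 24.0 and 24.5 CPM; its groups overlapped and its log2 fold change of 0.08 ± 0.06 did not pass (edgeR adjusted p = 0.314). The difference in response among the paralogs was not tested.

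Members with bacterial counterparts and mitochondria-specific members rose in shares between 63.3% and 70.0%, a difference that was not tested. Of 30 large subunit members with a bacterial counterpart 19 rose and 3 fell (median 0.29), and of 19 tested mitochondria-specific ones 13 rose and 1 fell (median 0.28). In the small subunit 11 of 16 with a bacterial counterpart rose and 1 fell (median 0.24), and 7 of 10 mitochondria-specific ones rose and none fell, all 10 having fitted fold changes above 0 (median 0.24). By site in the large subunit, a grouping chosen after the values were seen, 6 of 8 proteins around the tunnel exit rose: Mrpl17, Mrpl22 (0.34), Mrpl23 (0.25), Mrpl24 (0.15), Mrpl39 (0.28) and Mrpl47 (0.39). The others were Mrpl45, which fell, and Mrpl44, at -0.01 and not passing. For comparison, 66.0% of all tested large subunit genes and 26.7% of all genes tested rose, and no site was tested against these shares. Without wild-type replicate 1, Mrpl23 (edgeR adjusted p = 0.0886) and Mrpl24 (adjusted p = 0.0668) did not pass. Mrpl23 also missed the threshold with DESeq2 (adjusted p = 0.0862) and limma-voom (adjusted p = 0.0534). Of the stalk that recruits translation factors, Mrpl12 (0.48) and Mrpl11 (0.45) rose, Mrpl10 (0.09) and Mrpl54 (-0.12) did not pass, and Mrpl53 was not tested. Of 6 proteins listed here for the central protuberance, not its full set, Mrpl46 (0.44), Mrpl38 (0.41) and Mrpl40 (0.41) rose. Mrpl27 (0.20), Mrpl18 (0.11) and Mrpl48 (-0.04) did not pass. Of these, Mrpl18 passed without wild-type replicate 1 (edgeR adjusted p = 0.0143), with upper quartile factors (adjusted p = 0.0375) and with library totals alone (adjusted p = 0.00658). At the tunnel exit, genes for proteins of 1 site thus moved both ways.

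Other large subunit genes that rose were Mrpl42 (0.48), Mrpl20 (0.46), Mrpl57 (0.46), Mrpl2 (0.44), Mrpl51 (0.41), Mrpl15 (0.39), Mrpl19 (0.34), Mrpl13 (0.33), Mrpl28 (0.33), Mrpl37 (0.31), Mrpl35 (0.25), Mrpl49 (0.25), Mrpl21 (0.23), Mrpl50 (0.18) and Mrpl43 (0.15), on the log2 scale. Those that did not pass were Mrpl34 (0.06), Mrpl52 (-0.02), Mrpl32 (-0.03), Mrpl4 (-0.06), Mrpl33 (-0.07) and Mrpl1 (-0.09). In the small subunit, Mrps28 (0.32), Mrps24 (0.32), Mrps10 (0.30), Mrps14 (0.30), Mrps27 (0.28), Mrps26 (0.27), Mrps17 (0.25), Mrps15 (0.22), Mrps34 (0.21), Mrps7 (0.21), Mrps21 (0.18) and Mrps23 (0.15) also rose. Mrps11 (0.18), Mrps33 (0.14), Mrps35 (0.12), Mrps31 (0.10), Mrps16 (0.06) and Mrps9 (0.03) did not pass. Mrps11 and Mrpl46, on opposite strands of chromosome 7, have overlapping exons; Mrpl46 rose while Mrps11 missed the threshold (edgeR adjusted p = 0.0596). Mrpl53 had 0, 1 and 2 counts in wild type and 4, 1 and 3 in KO, at or near the 3 counts taken as the floor, and no fold is given for it; its exons overlap a predicted gene on its own strand.

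Levels were compared between genes as FPKM (CPM divided by exon length in kilobases), using the summed length of all annotated exons. Over the 76 tested members, which leaves out Mrpl53, large subunit genes in wild type ran from 2.12 to 58.9 FPKM (median 15.7) and the small subunit genes from 3.73 to 36.2 FPKM (median 10.5). Mrpl18, whose bacterial counterpart binds 5S rRNA, was the most abundant at 58.9 ± 2.44 FPKM in wild type and 63.6 ± 0.638 FPKM in KO (SD, n = 3), with Mrpl45 next at 57.4 ± 4.53 FPKM in wild type and 42.5 ± 1.20 FPKM in KO. These neighbours were within their spread of each other in wild type and apart in KO, where Mrpl12, the stalk protein, was second at 57.3 ± 3.88 FPKM after 41.0 ± 3.38 FPKM in wild type. In the small subunit Mrps23 (36.2 ± 0.858 FPKM), Mrps15 (33.2 ± 1.15 FPKM) and Mrps6 (32.3 ± 3.53 FPKM) were highest in wild type, the last pair within their spread. The lowest tested members were Mrpl23 (2.12 ± 0.197 FPKM), Mrpl48 (4.43 ± 0.155 FPKM) and Mrpl47 (4.66 ± 0.215 FPKM) in the large subunit, and Mrps36 (3.73 ± 0.445 FPKM), Mrps25 (4.01 ± 0.177 FPKM) and Mrps35 (4.59 ± 0.0531 FPKM) in the small one.

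The order of levels depended on the length used. With the length of the principal transcript in place of all exons, a measure added after seeing the data, the wild-type medians were 26.1 FPKM in the large subunit and 20.4 FPKM in the small one, and Mrpl33 moved from 7.90 to 121 FPKM, the highest of all. Mrpl23 moved from 2.12 to 14.9 FPKM. The rank correlation between both versions over the 76 tested members was 0.74 (Spearman's rho across genes, which share libraries and counts). By the principal transcript Mrpl18 (67.6 FPKM), Mrpl45 (61.3 FPKM) and Mrpl12 (47.8 FPKM) were still among the higher members in wild type, and Mrps25 (4.35 FPKM) and Mrpl47 (6.12 FPKM) among the lower. Length divides out of the fold changes.

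Members with fewer counts had larger fold changes, on splitting them into 3 groups by level. Of the 26 members in the lowest-counted group by mean CPM 18 rose and 1 fell (median 0.33), of 25 in the middle group 18 rose and 1 fell (median 0.28), and of 25 in the highest group 14 rose and 3 fell (median 0.15). Across the 76 members the rank correlation of mean log2 CPM with the log2 fold change was -0.36 (-0.39 over the 47 large subunit genes and -0.35 over the 29 small subunit genes), against -0.10 over all 14209 genes. With FPKM it was -0.34. The rank correlation of GC content with the log2 fold change was 0.02 over the members, but -0.09 over the large subunit genes and 0.33 over the small subunit genes, and that of exon length was 0.05 (0.02 and 0.06). These are descriptions across genes that share the same libraries, and level and fold change come from the same counts.

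**Figure D3:**
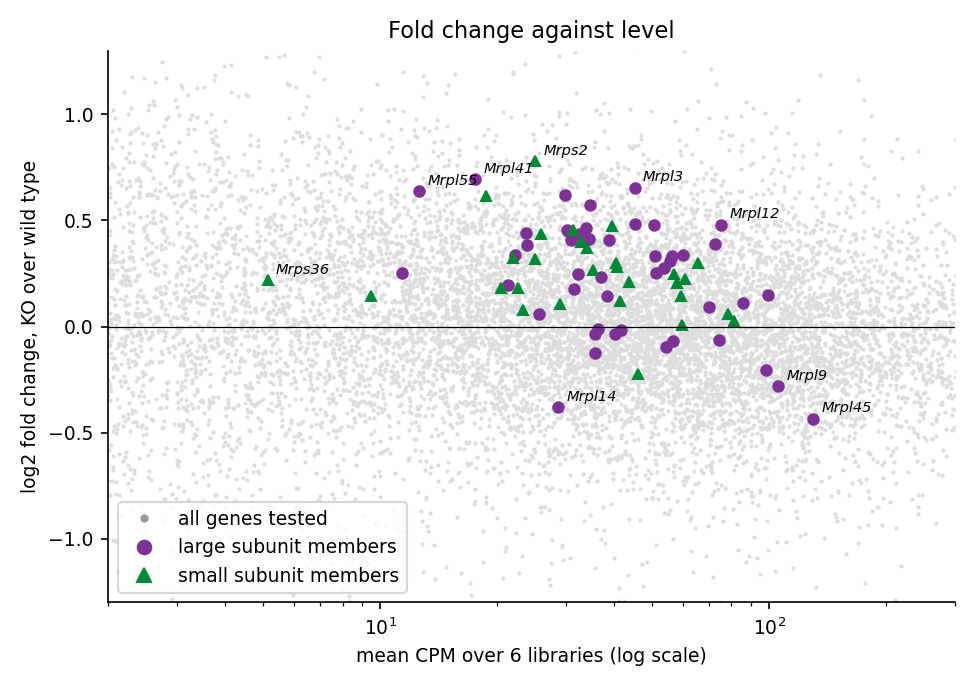
Log2 fold change of KO over wild type against mean CPM over the 6 libraries (log scale), for all tested genes (grey), large subunit members (purple circles) and small subunit members (green triangles); genes beyond the axis limits are not drawn. Most members lie above 0, and the highest counted ones, Mrpl45 and Mrpl9, lie below it.

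Many of these genes share a start region with a neighbour. A protein-coding gene on the opposite strand started within 1000 bases of 18 of 76 tested members (23.7%), against 1278 of 12020 tested protein-coding genes (10.6%). The neighbours were higher in 8 cases, lower in 4 and did not pass in 6, where of 1162 tested neighbours of all such protein-coding genes 414 were higher and 253 lower. Where both genes of such a pair were called, 5 pairs went the same way and 4 opposite ways, against 265 and 132 over all protein-coding genes, counted gene by gene, so that a pair can enter by both of its genes. Mrps12 and Sars2, the mitochondrial seryl-tRNA synthetase gene, start 172 bases apart, around the promoter printed above with its CCAAT boxes. Sars2 was at 22.0, 23.6 and 21.3 CPM in wild type and 26.4, 28.4 and 26.0 CPM in KO, and rose with Mrps12, by 0.27 ± 0.07 (edgeR adjusted p = 0.0063). Mrpl49 and Fau, which encodes a fusion of a ubiquitin-like protein and cytosolic ribosomal protein S30, start 59 bases apart and went opposite ways. Mrpl49 rose by 0.25 ± 0.06 and Fau, at 750.2, 684 and 671 CPM in wild type and 512, 453 and 465 CPM in KO, fell by 0.56 ± 0.06 (edgeR adjusted p = 7.95e-05).

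The direction of the mitochondrial set was not that of the cytosolic ribosome. Of 80 tested cytosolic ribosomal protein genes, taken by name, 73 were lower (91.2%, against 26.1% of all genes tested). A further 3 were higher (3.75%, against 26.7%) and 4 did not pass. The median of the cytosolic genes was -0.30. Their mean deviation was highest in wild-type replicate 1, at 0.20, where that of the mitochondrial large subunit genes was lowest. Many cytosolic ribosomal protein genes have processed pseudogenes, and their counts are uncertain, since the sources used here do not say how reads that fit both were treated.

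Genes that act with the mitochondrial ribosome were read from 3 lists. Of 6 proteins of the ribosome with other names 2 rose (33.3%, against 26.7% of all genes tested), a share near that of all genes. Ptcd3, a pentatricopeptide protein of the small subunit, rose by 0.44 ± 0.06 (edgeR adjusted p = 0.000234), and Chchd1, another small subunit protein, by 0.31 ± 0.06. The other 4, Dap3 (-0.11), Aurkaip1 (0.10), Gadd45gip1 (-0.08) and Ict1 (0.03), did not pass, and the median was 0.07. Of 30 genes listed for assembly and rRNA modification 19 rose (63.3%, against 26.7% of all genes tested), 1 fell and 10 did not pass (median 0.28). The list is broader than its name. Polrmt (0.38) and Tfam (0.20), which rose, and Tfb2m (-0.16), which did not pass, act in mitochondrial transcription. Its pseudouridine synthase genes are not split by the RNA they modify. Trub2, a mitochondrial pseudouridine synthase, rose by 0.93 ± 0.10 (edgeR adjusted p = 8.82e-05), from 10.9, 14.1 and 13.9 CPM to 23.3, 27.0 and 24.1 CPM. Noa1, a GTPase needed for the small subunit, rose by 0.53 ± 0.06, and Rpusd4, another pseudouridine synthase, fell by 0.26 ± 0.06 (edgeR adjusted p = 0.0035).

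Of 22 genes for mitochondrial translation and its mRNAs 13 rose (59.1%, against 26.7% of all genes tested), 2 fell and 7 did not pass (median 0.30). This list, too, is broader than translation factors. Among its members that are not such factors, Cox18 (0.34), Pnpt1 (0.38), Mto1 (0.45) and Letm1 rose. Oxa1l (-0.08), Gtpbp3 (0.02), Trmu (0.16) and Nsun3 (0.39), also no such factors, did not pass. Lrpprc, which stabilises mitochondrial mRNAs, rose by 0.65 ± 0.07 (edgeR adjusted p = 9.23e-05), from 72.3, 81.1 and 78.6 CPM to 112, 133 and 119 CPM, with no overlap. Letm1, an inner membrane protein of ion exchange that has been tied to the mitochondrial ribosome, rose by 0.62 ± 0.07. Initiation factor gene Mtif3 fell by 0.22 ± 0.07 (edgeR adjusted p = 0.017) and Guf1, an elongation factor 4 relative, by 0.35 ± 0.08 (edgeR adjusted p = 0.00357). Guf1 was highest in wild-type replicate 1, at 91.2 CPM against 79.1 and 72.4 CPM in the other wild-type libraries, and fell by 0.26 without it. The call of Mtif3 was lost without wild-type replicate 2 (adjusted p = 0.0522) or KO replicate 2 (0.0603).

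**Figure D4:**
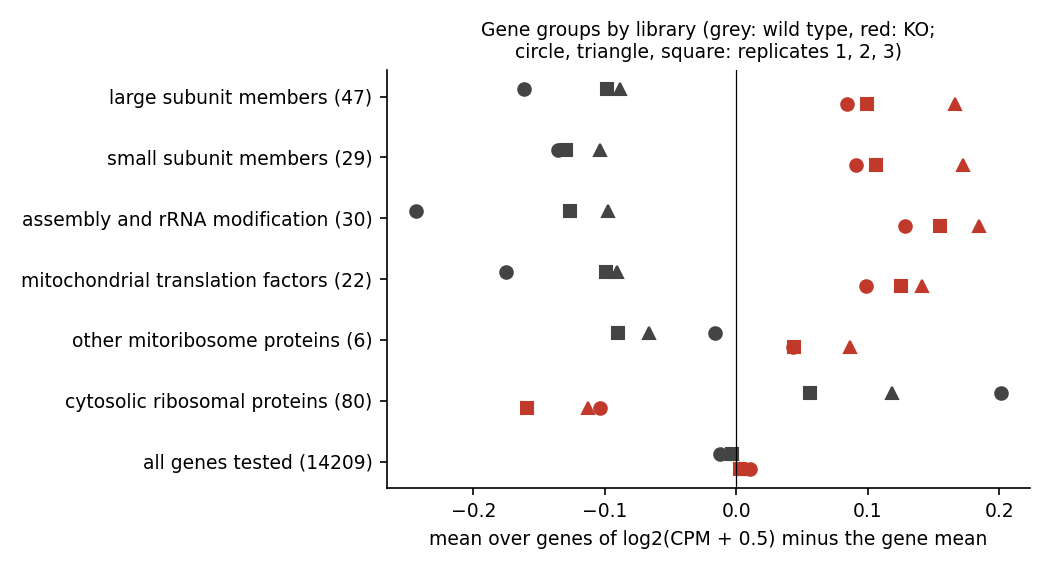
Mean over the tested genes of each group (number in brackets) of the difference between log2(CPM + 0.5) and its 6-library average, for wild-type (grey) and KO (red) libraries. In the large and small subunit members, the assembly and translation lists and the other mitoribosome proteins all KO libraries lie to the right of all wild-type libraries, in the cytosolic ribosomal proteins to the left, and over all tested genes both groups lie near 0.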

How the data were processed

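The values deposited by the authors are raw read counts, 1 row a gene symbol and 1 column a library (6 libraries). Per the submitters' processing notes, FastQC, STAR 2.5.2, HTSeq 0.6.1, DESeq2 1.12, Cufflinks and the mm10 genome were used, with no roles given; per the labels' protocols the libraries came from a stranded mRNA kit. Which annotation was counted, with what strand setting, and how reads that fit several genes were treated is not given in the sources used here; paralogs and overlapping genes are therefore uncertain. In 27 rows (0.241% of counts) the symbol had become a date; they stayed in the library totals and are not named.

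Samples were grouped by genotype from the labels, and KO was compared with wild type in 1 fit over all genes with edgeR 4.0.16 in R 4.3.3: the filterByExpr filter (14209 genes kept), TMM factors (0.949 to 1.03), the quasi-likelihood F test (4 residual degrees of freedom), and p-values adjusted after Benjamini and Hochberg over all genes tested, called under 0.05. CPM and FPKM use the TMM factors; values are mean ± SD over 3 libraries and fold changes ± SE. The biological coefficient of variation was 6.13%, and no replicate pair agreed within sampling noise (chi-square per gene 2.54 to 13.3). The procedure was also run on simulated counts. In these far fewer genes changed than were called here and no library was deviant, so the run does not bear on the calls reported. Positions, exon lengths and overlaps are from GENCODE M21 for mm10, in which 77 of 77 members were found by symbol.

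The members and lists were chosen with earlier results of these data known. Members were named by rule: in each subunit the 6 largest called rises, every called fall and the 3 highest and 3 lowest by FPKM, then the untested member, the Mrps18 paralogs and those whose name and place differ; in each related list the 2 smallest adjusted p and every called member against the list's direction; the targeted gene; and partners of 2 divergent pairs. Other names were chosen after their values were seen. Alternatives were other scalings, DESeq2 1.42.0, limma-voom (limma 3.58.1), other filters, the replicate block, each library left out, a GC and length correction and a stricter threshold; 3 were added after seeing the data. Figures were drawn with matplotlib 3.10.9.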

Additional observations from a re-analysis of the deposited data

How the results depend on the processing

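Scaling, test, filter, threshold and single libraries left most results in place: 547 alternative values of single genes kept direction and call against 25 that lost the call, 6 that gained it and 7 that changed sign, and 214 counts, medians and levels stayed near the reported value against 22 that moved. Of 50 members called higher, 44 were called with each library left out in turn and 44 under every other scaling (library totals apart), test, filter, block and correction; of 5 called lower, 3 and 5. Library totals alone as the scaling moved the median of all genes from 0.01 to 0.08 and the share of calls that were higher to 62.0%; it raised the median to 0.35 in the large and 0.30 in the small subunit, left 0 small subunit members and 1 translation factor lower, and turned Mrpl48, which did not pass, to 0.0401. Mrpl30 (adjusted p = 0.0531) and Mrps6 (0.105) did not pass under it. An adjusted p under 0.01 also left 0 small subunit members and 1 translation factor lower. Mrps30, which did not pass, took the other sign with DESeq2 size factors (-0.0010), DESeq2 (-0.0018), the GC and length correction (-0.0076), and with 1 library left out, when it ran from -0.0270 to 0.0536.

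With 1 library left out, 27 to 30 large subunit members were higher and 3 to 4 lower (median 0.25 to 0.31), and 17 to 20 small subunit members were higher and 0 to 1 lower (median 0.19 to 0.26). In the same fits 1 to 2 genes of the assembly list, 1 to 2 genes of the translation list and 0 to 1 other mitoribosome proteins were lower. Mrpl23, Mrps23, Mrps6 and Mtif3 each lost their call in several of these fits. Among alternatives chosen after seeing the data, members without exon overlap gave 19 large subunit members higher and 2 lower (median 0.33) and 12 small subunit members higher and 0 lower, fewer because only 45 members enter, and the length of the principal transcript gave median levels of 26.1 and 20.4 FPKM against 15.7 and 10.5.

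Whether replicate numbers pair the samples could not be settled, since only 3 libraries a group entered, each as a deviation from its group mean. Correlations of same-numbered libraries were 0.17, 0.13 and 0.01, and those of differently numbered ones ran from -0.17 to 0.11. For replicates 1 and 2 the same-numbered value was the highest, while wild-type replicate 3 correlated more with KO replicate 2 (0.11). With the replicate block 31 large subunit members were higher and 4 lower (median 0.28), and 20 small subunit members were higher and 1 lower (median 0.22); all genes went from 3800 to 3992 higher and from 3713 to 3908 lower. Mrpl53 had too few counts to be tested, and Mrps36, the least counted tested member, had the largest standard error (0.12).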
